A study of Drosophila melanogaster with 36 samples.

Results

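RNA of female Drosophila melanogaster heads was compared between females mated to males from polygamous lines and females mated to males from monogamous lines. The comparison rests on 12 of the 36 deposited samples, which are 2 sequencing runs of each of 6 head libraries out of 18 libraries in all. Counts of both runs were summed, so that n counts libraries.

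The females all came from the IV base population, from which the male lines had also been founded. P heads came from females mated to males of the lines P1, P2 and P3, in which mating took place in polygamous groups of 5 females and 5 males. M heads came from females mated to males of the lines M1, M2 and M3, in which a male was paired at random with a virgin female under enforced monogamy. Each male line had a census size of 200 and had evolved for 182 generations, followed by 1 generation of common garden rearing. Mating took place at 3 days of age, and the females were frozen at 4 days, 24 h after mating. A library pooled the heads of 20 females and corresponds to 1 male line, so that 3 lines per regime are the replicates. Heads of virgin females of the same base population and age, in 3 further libraries, are given last as the level without a mate. The question was whether the regime in which a male's line had evolved bears on gene expression in the head of his mate.

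In flies, males transfer sperm and seminal fluid proteins at mating, among them the sex peptide, which acts through the sex peptide receptor on female neurons. Mated females lay more eggs, are less willing to remate, eat more and differ in immune gene expression from virgins. Competition between males is stronger under polygamy than under monogamy, and is thought to act on seminal fluid proteins and male courtship. The head holds the brain and compound eyes, and also fat body, muscle and sensory organs.

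The 6 mated head libraries held 43763304 to 64761633 counts, with counts for 13017 to 13470 genes. Levels below are counts-per-million (CPM) on library sizes scaled by the trimmed mean of M-values (TMM), unless a sum over a list is given, which is on total counts. The head label was met by the markers: summed photoreceptor markers lay between 68349 and 72608 CPM in P heads and between 64608 and 66610 CPM in M heads. Of 7 markers of the male reproductive tract 4 (Acp26Aa, SP, Dup99B and dj) had no count in any mated head, and the sum of the 7 was at most 0.16 CPM. The 6 ovary markers measured summed to 8.17 to 11.4 CPM in P heads and 7.34 to 9.80 CPM in M heads. Markers of neurons, glia, blood cells and head fat body overlapped between the regimes, while those of muscle summed to 3991 to 4190 CPM in P heads and 3634 to 3941 CPM in M heads. In pooled tissue, fewer cells of a type and less RNA per cell cannot be told apart.

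No gene passed the test between P and M heads. Of 10886 genes tested with edgeR's quasi-likelihood test, 0 (0%) had a Benjamini-Hochberg adjusted p below 0.05, and the smallest adjusted p was 0.614. At an unadjusted p below 0.05 there were 864 genes (7.94%), of which 520 were higher and 344 lower in P heads, where 544.3 would be below that threshold if no gene differed. limma voom called 0 genes, and DESeq2 called 17 of 11699 (0.145%), 5 higher and 12 lower in P heads. Of the 12 lower ones 7, Jon25Bi, Jon25Bii, Jon99Ciii, Bace, CG12374, CG18577 and Diedel3, were high in the virgin library with midgut transcripts described below, which leaves 5 higher and 5 lower. Without M3, 2 genes passed, the metallothionein genes MtnD (log2 change -3.09) and MtnE (-2.71), both lower in P heads with an adjusted p of 0.0185. Without any other library of the 9, 0 genes passed, and the number at an unadjusted p below 0.05 was 404 without P2 and 1371 without P3. The median log2 change over all genes was -0.004, and the median standard error of a gene's log2 change was 0.10. The 95% interval of the change lay within 2-fold in either direction for 9631 genes (88.5%), and within 1.5-fold for 8115 (74.5%).

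Genes whose P and M libraries did not overlap were counted as a background for the members described below. All P libraries lay above all M libraries for 890 genes (8.18%), and below them for 763 (7.01%), together 15.2% of the genes tested. On library sizes by total counts the same counts were 1235 and 393, so the split between the directions depends on the scaling. Of the genes described below as free of overlap, Nepl14, LManI, BomS6, AkhR, InR, Akt, Obp18a and otu, with P below M, overlapped on total counts. The muscle gene Act57B, with P above M, did so too.

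Digestive enzymes of the midgut gave the widest differences, and these followed 3 libraries. The summed level of 29 midgut trypsins and chymotrypsins was 26.0, 96.2 and 14.9 CPM in P1, P2 and P3 heads, against 6737, 14011 and 13.5 CPM in M1, M2 and M3 heads. Virgin heads had 9073, 12.7 and 18.3 CPM. M1, M2 and virgin 1 were thus high, while M3 lay below all P heads, and the groups overlapped (exact two-sided permutation test, p = 0.4, adjusted p = 0.743 over 26 lists, where 3 against 3 libraries allow no p below 0.1). The trypsin gene alphaTry had 1.55, 19.7 and 1.39 CPM in P heads, 932, 2278 and 1.99 CPM in M heads, and 2844, 2.14 and 1.82 CPM in virgin heads. The serine protease gene yip7 had 1.65, 11.2 and 1.23 CPM in P heads, against 908, 2137 and 1.61 CPM in M heads and 350, 1.67 and 1.99 CPM in virgin heads. The proportions of the enzymes were not the same in these 3 libraries: Jon25Bii, a chymotrypsin-like protease, was at 92.4 CPM in M1, 156 CPM in M2 and 2.81 CPM in virgin 1, against at most 0.405 CPM in any P head. Of the 29 markers gammaTry and Jon66Ci had no count in any mated head.

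**Figure D1:**
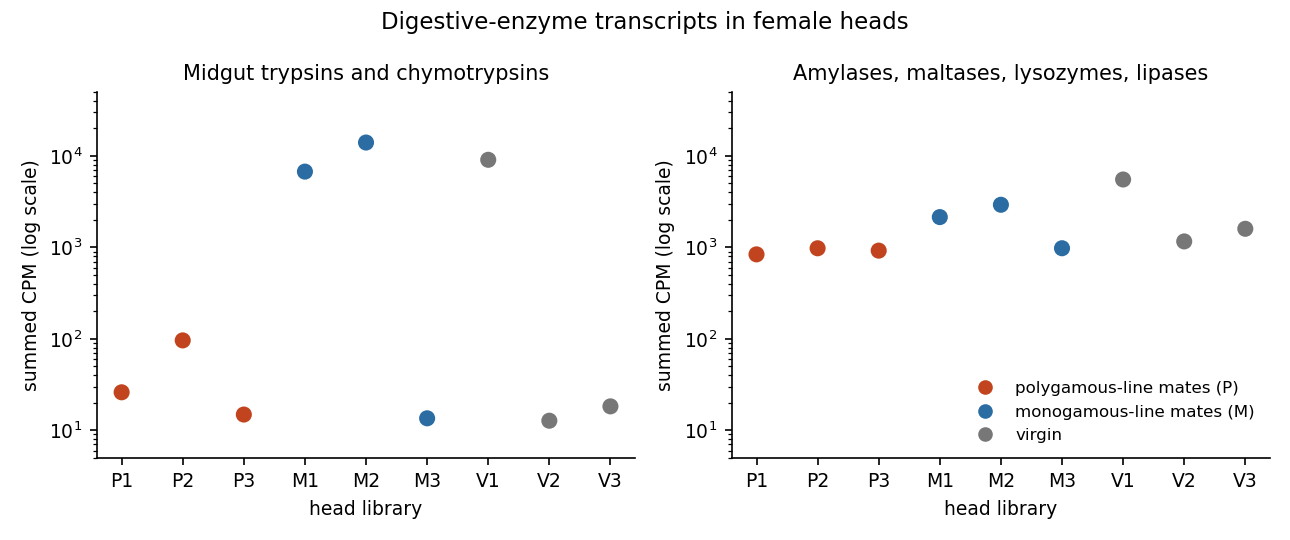
Summed CPM on total counts (log axis) of 2 lists of digestive enzymes in each head library, with P heads left, M heads in the middle and virgin heads right; each point is 1 library. M1, M2 and virgin 1 stand above the other 6 libraries in both panels, at 6737, 14011 and 9073 CPM for the trypsins and chymotrypsins.

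Of the 29 members 19 passed the expression filter, and 0 of these passed the test, with a median log2 change of -7.42. Amylases, maltases, lysozymes and midgut lipases summed to 839, 978 and 922 CPM in P heads, against 2144, 2925 and 979 CPM in M heads and 5525, 1162 and 1597 CPM in virgin heads. The M3 sum lay just above the P2 sum, so that the P and M sums did not overlap on total counts (exact two-sided permutation test, p = 0.1, adjusted p = 0.578). On TMM-scaled library sizes P2 was at 1020.1 CPM and M3 at 945 CPM, and the groups overlapped (exact p = 0.2). In that list 0 of 21 members tested passed, with a median log2 change of -2.34. The lysozyme gene LysB had 3.03, 2.27 and 0.151 CPM in P heads, against 207, 372 and 0.375 CPM in M heads. Against 7.01% of all genes, all P heads lay below all M heads in 4 of the 21. The maltase genes Mal-A1 and Mal-A2 were 2 of them, but were highest in virgin 1, where Mal-A1 had 1105 CPM, against 5.68 to 6.42 CPM in P heads and 7.39 to 36.0 CPM in M heads. The lysosomal mannosidase genes LManI and LManII were the others, and were not high in virgin 1. LManI had 13.7, 14.6 and 17.5 CPM in P heads, against 18.9, 21.4 and 19.2 CPM in M heads and 16.1 to 19.2 CPM in virgin heads, with a log2 change of -0.38 ± 0.11.

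A covariate for the midgut level of each library, the log2 of the summed midgut CPM plus 1, was added to the model to account for these transcripts. Since the covariate is built from the trypsins and chymotrypsins themselves, their median change of -0.15 in that model was set by the construction and is no result. The other digestive enzymes, which do not enter the covariate, had a median of -0.05. The biological coefficient of variation over all genes was 0.152 with the covariate and 0.272 without it. With the covariate 1 of 10886 genes (0.00919%) passed, the transporter gene Oatp58Da, with a log2 change of 7.77 (adjusted p = 0.0194). Its levels were 0.0393, 0.428 and 0.0168 CPM in P heads, 0.767, 2.40 and 0 CPM in M heads, and 3.05, 0 and 0 CPM in virgin heads, so that the sign of this change came from the covariate: without it the change was -2.78.

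Virgin 1 allowed transcripts that go with midgut RNA to be marked without use of the mated heads. Genes at least 1 higher on the log2(CPM + 0.5) scale in virgin 1 than in virgins 2 and 3 numbered 403, of which 371 were tested. Their median P minus M change was -2.19, against 0.002 for all other genes, 0.16 with the covariate and 0.16 with M3 as the only M library. Fitted changes of at least 2-fold numbered 33 higher (0.303%) and 330 lower (3.03%) in P heads, and 268 of the lower ones were genes high in virgin 1. Outside that set, 32 genes were at least 2-fold higher and 62 at least 2-fold lower. As the proportions of the enzymes differed between virgin 1 and M1 and M2, genes outside the set may still follow M1 and M2. Of the genes without overlap, 65 of the 763 with P below M and 2 of the 890 with P above M were high in virgin 1. The source of the midgut RNA in M1, M2 and virgin 1 was not tested.

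**Figure D2:**
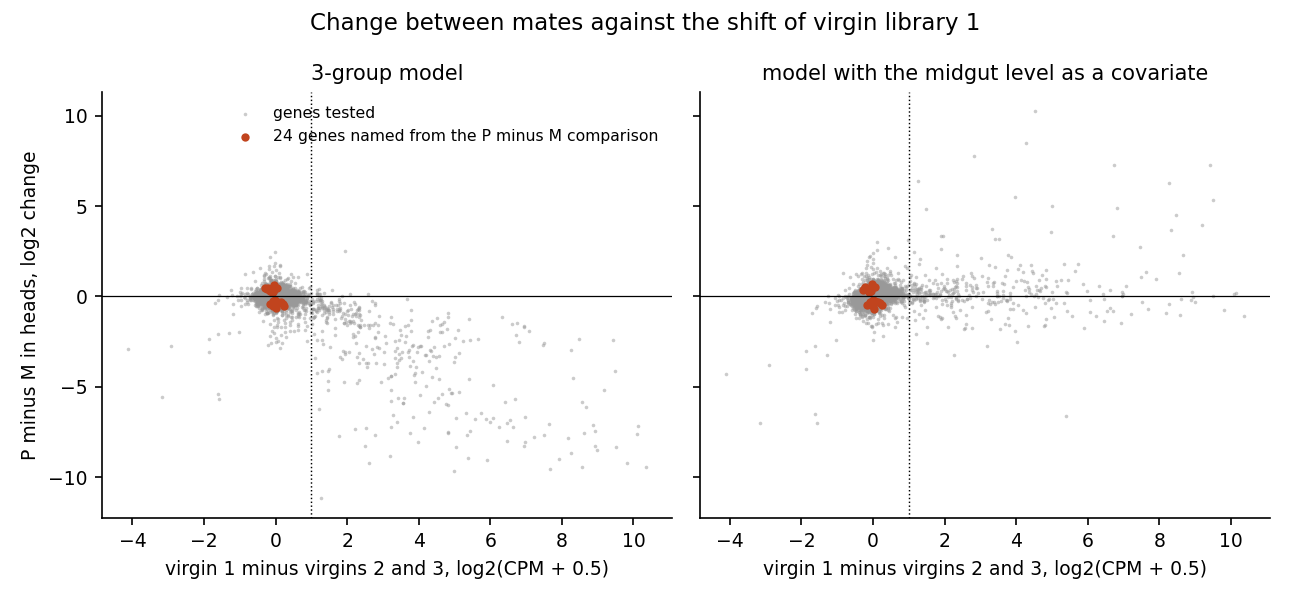
The log2 change between P and M heads (vertical) against the shift of virgin 1 from the other virgin libraries on the log2(CPM + 0.5) scale (horizontal), for each gene tested, without (left) and with (right) the midgut covariate. Right of the dotted line at 1 lie the genes high in virgin 1, whose median change is -2.19 in the left panel and 0.16 in the right one, while the 24 named genes (red) lie near a shift of 0 in both.

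The 24 genes named from the comparison were the 12 of smallest unadjusted p in each direction, among genes of a mean of at least 1 CPM whose P and M heads did not overlap. None passed the test, each having an adjusted p of 0.614 in edgeR's quasi-likelihood test, and their levels are given as a description. None was high in virgin 1, the widest shift being 0.285. All 24 kept their sign with the midgut covariate, and the change was then 0.793 to 1.15 times that without it. With M3 as the only M library the ratio was 0.741 to 1.48, where the choice of genes without overlap in effect fixed the sign. DESeq2 called 7 of the 24. The genes were chosen from these same libraries, so these refits are no separate support for them.

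Idgf3, which encodes an imaginal disc growth factor, a secreted chitinase-like protein, had the smallest p. It lies at 2L:16450907-16455194 (plus strand, BDGP6). Its level was 72.0, 72.5 and 68.1 CPM in P heads, against 98.1, 101 and 104 CPM in M heads. Virgin heads had 89.4, 72.9 and 74.0 CPM, so that the virgin libraries 2 and 3 lay near the P heads. The mean was 70.9 ± 2.4 CPM in P heads and 101 ± 3.1 CPM in M heads (SD, n = 3 each), a log2 change of -0.51 ± 0.08 (SE) with a 95% interval of -0.69 to -0.33. DESeq2's adjusted p for Idgf3 was 9.46e-05, against 0.614 in edgeR.

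The next gene by p was mdy (2L:16816660-16826964), which encodes diacylglycerol acyltransferase, which makes triglycerides for storage. Its level was 56.0, 52.5 and 63.2 CPM in P heads, against 80.8, 75.7 and 76.4 CPM in M heads, and 66.9, 62.3 and 70.8 CPM in virgin heads. Every P head lay below every M head, with a log2 change of -0.44 ± 0.08. Other lipid genes were members of the fat body list, in which 2 of 24 tested lay below M heads without overlap, against 7.01% of all genes. Its 1 member above M heads, against 8.18% of all genes, was Obp99a. That gene had 238, 345 and 244 CPM in P heads and 210, 230 and 201 CPM in M heads. The gene apolpp, which encodes the apolipoprotein of the main lipid carrier of the blood, had 5647, 6511 and 6303 CPM in P heads, against 7644, 7692 and 7549 CPM in M heads and 7092, 7900 and 7172 CPM in virgin heads. For apolpp the P and M heads did not overlap, at a log2 change of -0.31 ± 0.08, and DESeq2 called it. The lipid droplet gene Lsd-2, chosen after its values were seen, had 381, 403 and 384 CPM in P heads against 423, 434 and 440 CPM in M heads, without overlap, and a log2 change of -0.15 ± 0.09. Apoltp, a lipid transfer particle gene, had 693, 791 and 652 CPM in P heads and 801, 768 and 813 CPM in M heads, which overlapped.

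The 24 included a pair of neighbouring genes. Nepl13 (3R:22758810-22761076) and Nepl14 (3R:22761440-22763711), of the neprilysin-like metallopeptidase family, lie on the minus strand. Nepl13 had 22.9, 26.2 and 24.6 CPM in P heads against 29.6, 30.2 and 31.9 CPM in M heads, and Nepl14 had 25.5, 26.6 and 28.4 CPM in P heads against 30.7, 33.1 and 33.9 CPM in M heads. Virgin heads were at P levels for both, with 22.8 to 25.3 CPM for Nepl13 and 26.5 to 27.8 CPM for Nepl14. As similar family members they may share reads, so their values may not be independent.

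Among the other genes with P below M was l(2)gl, the cell polarity gene lethal giant larvae, with 62.8, 65.9 and 69.3 CPM in P heads, against 82.0, 77.9 and 81.1 CPM in M heads. The gene disp, which releases lipid-modified Hedgehog from cells, had 36.9, 31.9 and 38.6 CPM in P heads, against 42.1, 46.6 and 45.2 CPM in M heads. The RNA lncRNA:CR44662 had the widest change of these 12, with 2.38, 2.23 and 2.70 CPM in P heads against 3.57, 3.6 and 4.08 CPM in M heads (log2 change -0.62 ± 0.13). The remaining 5 were Arts, CR18228, CG11089, CG6834 and the organic anion transporter gene Oatp30B, with log2 changes of -0.51 to -0.20.

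Among the genes with P above M, Ing3 (X:18650718-18653091) is a member of the inhibitor of growth family, found in histone acetyltransferase complexes. It had 9.65, 11.2 and 8.14 CPM in P heads, against 7.19, 5.23 and 5.96 CPM in M heads and 6.45, 6.39 and 6.53 CPM in virgin heads, the widest change of the 24 at 0.66 ± 0.14. The gene eIF6, whose product acts in the assembly of the large ribosomal subunit, had 29.4, 28.1 and 22.6 CPM in P heads, against 19.1, 21.5 and 18.2 CPM in M heads and 17.4 to 17.9 CPM in virgin heads. Its log2 change was 0.44 ± 0.10. The gene rept, an ATPase of chromatin remodelling complexes, and the gene htk had smaller differences, with log2 changes of 0.29 ± 0.07 and 0.27 ± 0.06.

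The clock gene per (X:2685580-2692780), whose product represses its own transcription in a daily cycle, had 37.6, 46 and 41.2 CPM in P heads and 28.0, 30.2 and 33.0 CPM in M heads. Virgin heads had 48.6, 54.2 and 62.2 CPM, above both. The log2 change between P and M heads was 0.45 ± 0.11. Its partner tim was not separated between the regimes, with 100, 116 and 159 CPM in P heads against 170, 138 and 139 CPM in M heads, while virgin heads had 347, 420 and 382 CPM. The clock gene vri had 95, 110 and 117 CPM in P heads and 81.7, 88.8 and 108 CPM in M heads, and Pdp1 had 324, 327 and 384 CPM in P heads against 397, 368 and 394 CPM in M heads. Of 13 clock genes tested 0 passed, and per was the only one without overlap, against 8.18% of all genes with P above M.

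Also with P above M were eya, a transcriptional coactivator of eye development, at 44.5, 48.9 and 46.9 CPM in P heads against 40.2, 37.0 and 39.2 CPM in M heads, and the calpain-like gene sol, named for small optic lobes, at 124, 130 and 115 CPM in P heads against 105, 95.6 and 99.8 CPM in M heads. AQP, an aquaporin gene, RhoGAP5A, CG5828, CG11122 and the unnamed FBgn0011655, which the annotation used here did not hold, completed the 12, with log2 changes of 0.32 to 0.49.

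**Figure D3:**
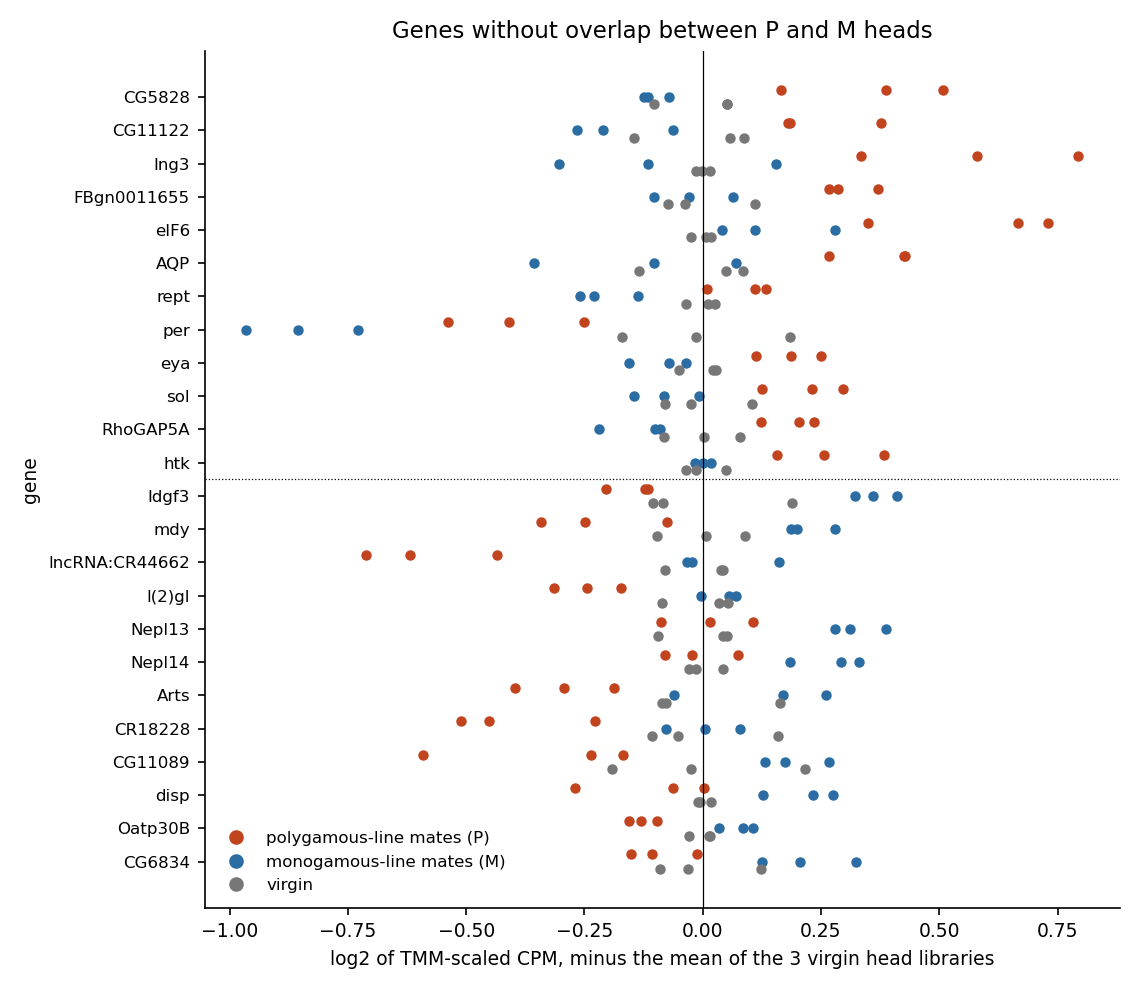
TMM-scaled log2 CPM of the 24 named genes in each head library, relative to the mean of the 3 virgin head libraries (0 on the horizontal axis), with the P heads above M heads and virgin heads on each gene's line. Above the dotted line every P head lies right of every M head, and below it left; per is the gene with virgin heads above both regimes.

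The virgin mean lay between the P and the M mean for 19 of the 24 genes. It was nearer to the M mean for 10 of the 12 genes with P above M and for 6 of the 12 with P below M, against 62.6% of all genes tested and 67.9% of all genes without overlap.

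With the midgut covariate the same rule, with 6 genes per direction, again named CG5828, Ing3 and eIF6 among those with P above M and Idgf3, mdy, lncRNA:CR44662 and Nepl14 among those with P below M. It added CG13921, CG31121 and the RNA ligase gene RtcB above, and CG4259 and CG14518 below. RtcB had 23.9, 24.9 and 21.5 CPM in P heads and 19.8, 18.5 and 15.3 CPM in M heads. None of the 12 passed with the covariate (adjusted p = 0.535 in edgeR).

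Of the genes of the eye, Rh6, the opsin of a class of R8 photoreceptors, had 465, 527 and 509 CPM in P heads, against 409, 388 and 420 CPM in M heads and 455, 467 and 491 CPM in virgin heads. The P and M heads did not overlap, with a log2 change of 0.30 ± 0.07 that DESeq2 called (adjusted p = 0.0442) and edgeR did not (adjusted p = 0.614). The main opsin ninaE had 44322, 46068 and 47182 CPM in P heads against 40497, 42366 and 38665 CPM in M heads, also without overlap, with a change of 0.18 ± 0.08. Rh3 and Rh4, opsins of R7 photoreceptors, had overlapping levels, with changes of -0.02 ± 0.08 and -0.05 ± 0.10. Of 20 phototransduction genes 0 passed, and the median change was 0.01. Of the 20, 2 lay above M heads without overlap, against 8.18% of all genes. The summed photoreceptor markers given above were also higher in P heads without overlap. Most of that sum was ninaE itself, and of its other members only Rh6 was free of overlap, so it is no separate result. On total counts P2 (67369 CPM) lay below M3 (67428 CPM). Likewise the summed level of the 20 genes did not overlap on TMM-scaled library sizes (exact two-sided permutation test, p = 0.1), but did on total counts (82215, 79610 and 88747 CPM in P heads against 73680, 75416 and 81186 CPM in M heads, exact p = 0.2). Here too ninaE was the largest part of the sum. The part of eye RNA in these differences was not tested.

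Odorant binding proteins, small carrier proteins of the antenna and of other tissues, summed to 4860, 4996 and 4652 CPM in P heads against 4597, 4267 and 4033 CPM in M heads, which did not overlap on total counts (exact two-sided permutation test, p = 0.1, adjusted p = 0.578). On TMM-scaled library sizes they did, with 4822, 5211 and 4526 CPM in P heads against 4845, 4419 and 3895 CPM in M heads (exact p = 0.3). Of 29 tested 0 passed, and 4 lay above and 1 below M heads without overlap, against 8.18% and 7.01% of all genes. Obp19d had 1122, 1331 and 1104 CPM in P heads, against 987, 991 and 765 CPM in M heads and 907, 783 and 1037 CPM in virgin heads. Obp19b had 11.9, 15 and 12.9 CPM in P heads against 12.2, 8.96 and 9.84 CPM in M heads, which overlapped. Obp18a ran the other way, at 27.0, 31.0 and 32.1 CPM in P heads against 34.0, 33.6 and 37.0 CPM in M heads. Of 33 chemoreceptors tested 0 passed, and the median change was 0.03. Without overlap 4 (Orco, Or59b, Or82a and Or92a) lay above and 0 below M heads, against 8.18% and 7.01% of all genes. Or82a had 13 to 23 counts in each mated head library. The summed level of the list did not overlap on TMM-scaled library sizes (exact two-sided permutation test, p = 0.1), but did on total counts (exact p = 0.2). Orco, the coreceptor of the odorant receptors, had 86.8, 94.6 and 87.0 CPM in P heads, against 80.3, 73.9 and 78.4 CPM in M heads, while virgin heads had 89.4, 44.2 and 90.9 CPM. Ir76b, a coreceptor of ionotropic receptors, overlapped, with 14.0, 18.9 and 15.4 CPM in P heads against 12.1, 11.1 and 14.1 CPM in M heads.

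Neuropeptide, amine and receptor genes gave 0 of 37 that passed, with a median change of 0.00. Of the 37, 4 lay above and 1 below M heads without overlap, against 8.18% and 7.01% of all genes. Tdc2, the tyrosine decarboxylase on the way to octopamine in neurons, had 11.2, 12.5 and 9.60 CPM in P heads, against 9.16, 8.80 and 9 CPM in M heads. SerT, the serotonin transporter gene, had 31.4, 35.1 and 30.4 CPM in P heads against 29.2, 28.0 and 27.9 CPM in M heads, and the neuropeptide gene Nplp1 had 101, 114 and 95.7 CPM in P heads against 93.3, 79.2 and 91.5 CPM in M heads. AkhR, the receptor of the adipokinetic hormone that mobilises stored fat and sugar, was at 71.3, 70.7 and 66.9 CPM in P heads, against 72.4, 83.2 and 96.3 CPM in M heads and 59.7 to 61.2 CPM in virgin heads. The sex peptide receptor SPR showed no separation, with 35.2, 38.3 and 37.3 CPM in P heads against 36.7, 31.7 and 46.2 CPM in M heads. Markers of neurons and glia gave 0 of 16 and 0 of 10 genes that passed, with medians of -0.07 and -0.02.

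The fat body makes yolk proteins, which are taken up by the ovary. The yolk protein genes Yp1, Yp2 and Yp3 had log2 changes of 0.02 ± 0.13, 0.05 ± 0.19 and 0.26 ± 0.21. Yp1 had 44353, 55014 and 38589 CPM in P heads, against 50239, 45527 and 40422 CPM in M heads and 33456, 39306 and 34209 CPM in virgin heads. P and M heads overlapped for all 3 genes. The fat body gene fit, known from the satiety response to protein, had 192, 264 and 206 CPM in P heads and 255, 268 and 246 CPM in M heads, and takeout, to, had 117, 130 and 89.4 CPM in P heads against 216, 129 and 127 CPM in M heads. Of 24 fat body genes 0 passed, with a median of -0.12. Of the 24, 1 lay above and 2 below M heads without overlap, against 8.18% and 7.01% of all genes.

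Jhe encodes juvenile hormone esterase, which breaks down the hormone that promotes egg production. It had 16.8, 11.7 and 10.1 CPM in P heads, against 7.87, 9.58 and 9.64 CPM in M heads and 1.35, 1.38 and 1.37 CPM in virgin heads. Every P head lay above every M head, and every mated head above every virgin head. The log2 change between P and M heads was 0.51 ± 0.17, which did not pass (adjusted p = 0.614 in edgeR's quasi-likelihood test). Of 16 juvenile hormone genes 0 passed, with a median of 0.03. Jhe was the 1 member above M heads without overlap, and Jhbp1 and Jheh3 lay below, against 8.18% and 7.01% of all genes. Jhbp1, a juvenile hormone binding protein gene, had 119, 126 and 110 CPM in P heads and 170, 126 and 144 CPM in M heads, with P2 just below M2. Insulin and nutrient signalling gave 0 of 14, with a median of -0.03. Without overlap, 1 of the 14 lay above and 2 lay below M heads, against 8.18% and 7.01% of all genes. Those below were InR, the insulin receptor, with 43.6, 37.7 and 46.3 CPM in P heads against 52.3, 48.4 and 50.2 CPM in M heads, and the kinase gene Akt, with 94.6, 89.9 and 97.4 CPM in P heads against 104, 101 and 104 CPM in M heads. Both overlapped on total counts. Tsc1, an inhibitor of growth signalling, lay above M heads. Thor, a translation inhibitor that insulin signalling restrains, overlapped, with 602, 538 and 399 CPM in P heads against 497, 504 and 403 CPM in M heads. Ecdysone genes gave 0 of 15 and a median of -0.02.

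Immune genes differed between libraries of the same regime. DptA, a diptericin gene induced through the Imd pathway, had 0.374, 1.24 and 0.285 CPM in P heads, against 31.8, 0.352 and 53.6 CPM in M heads and 0.0872, 0.111 and 43.6 CPM in virgin heads. It was thus high in M1, M3 and virgin 3, of which M1 alone was high in midgut transcripts, and M2 lay among the P heads. DptB showed the same 3 libraries, with 0.334, 1.51 and 0.520 CPM in P heads, against 9.16, 0.512 and 9.82 CPM in M heads and 12.5 CPM in virgin 3. Drsl5, of the drosomycin family, had 197, 211 and 185 CPM in P heads against 148, 169 and 128 CPM in M heads, without overlap, while virgin heads spanned 147 to 222 CPM. It was the 1 antimicrobial peptide gene of 12 tested above M heads without overlap, against 8.18% of all genes. Of 12 antimicrobial peptides 0 passed, with a median of -0.45, or -0.89 with the midgut covariate and -1.13 with M3 as the only M library, and the summed level was 339.5, 382 and 305 CPM in P heads against 478, 275 and 544 CPM in M heads (exact two-sided permutation test, p = 0.4). Bomanins and daishos, short peptides of the Toll response, gave 0 of 14, with a median of 0.11. BomS6 was the 1 member below M heads without overlap, against 7.01% of all genes, and it overlapped on total counts. Its level was 146, 144 and 164 CPM in P heads, against 170, 196 and 224 CPM in M heads and 206 to 335 CPM in virgin heads.

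Stress genes differed among the P heads. The cytokine gene upd3, a ligand of the JAK/STAT pathway, had 2.67, 0.248 and 0.252 CPM in P heads, against 0.0959, 0.176 and 0.309 CPM in M heads, so that P1 alone was high. Socs36E, a target and inhibitor of that pathway, had 57.3, 43.2 and 40.5 CPM in P heads against 35.8, 37.2 and 37.2 CPM in M heads and 32 to 36.3 CPM in virgin heads. It did not overlap, with a log2 change of 0.36 ± 0.12, and was the 1 stress list member above M heads, against 8.18% of all genes. TotA, a secreted Turandot stress protein, had 26.7, 124 and 103 CPM in P heads against 147, 216 and 212 CPM in M heads, while virgin heads ranged from 44.2 to 317 CPM. TotX had 3.07, 3.63 and 3.86 CPM in P heads against 4.44, 5.74 and 4.10 CPM in M heads. With TotC, these were the 3 members that lay below M heads without overlap, against 7.01% of all genes. TotA and TotC are similar genes between which reads may be split. Of 7 Turandot and stress genes 0 passed, with a median of 0.01.

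Heat shock genes had positive changes for 13 of the 14 tested, with a median of 0.79, and 0 passed or were free of overlap. Hsp23, a small chaperone gene, had 84.9, 25.6 and 10.4 CPM in P heads, against 22.9, 11.7 and 13.8 CPM in M heads and 14.7, 12.5 and 25.5 CPM in virgin heads. P3 was the lowest of all 9 and P1 the highest. The list summed to 3295, 2386 and 1988 CPM in P heads, against 2218, 2036 and 1926 CPM in M heads, and the difference of 496 CPM was 127 CPM without P1. The cochaperone gene stv had 290, 240 and 186 CPM in P heads and 214, 180 and 162 CPM in M heads.

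**Figure D4:**
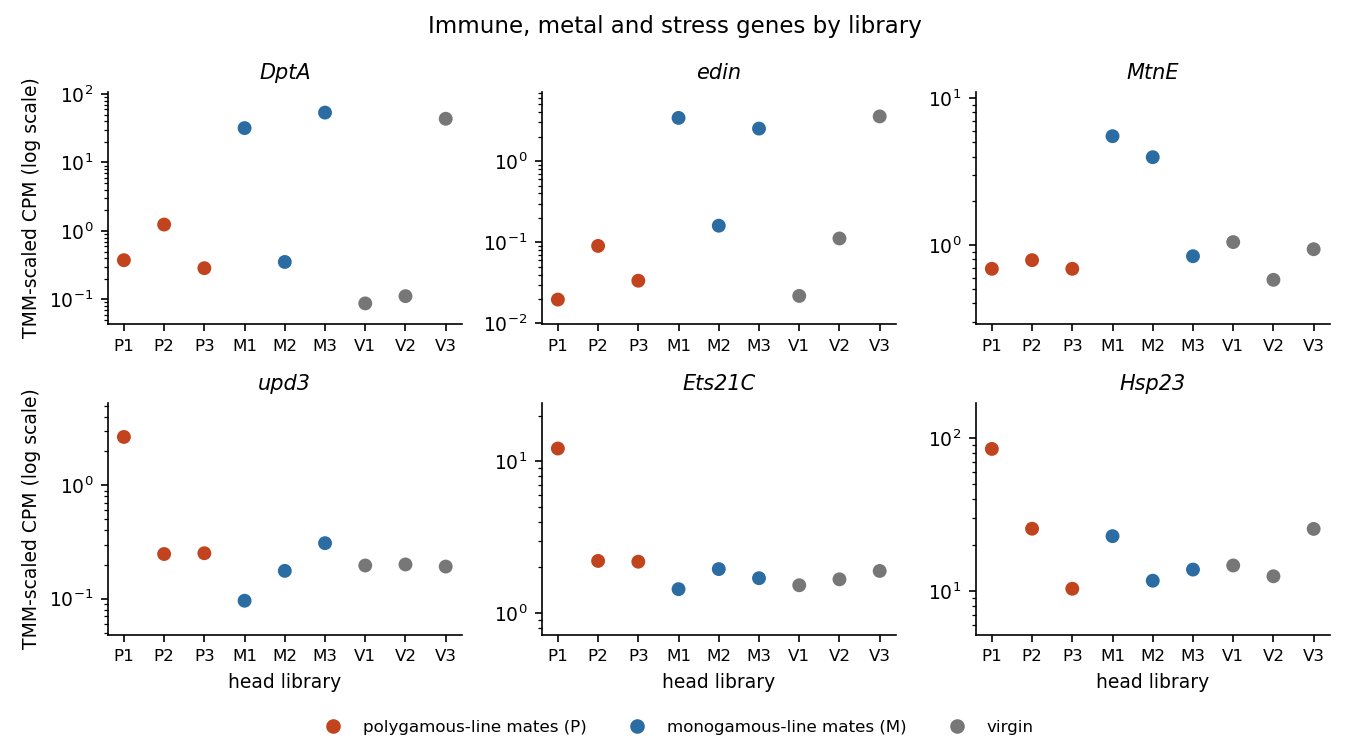
TMM-scaled CPM (log axes, which differ between panels) of 6 genes in each head library, with P heads left, M heads in the middle and virgin heads right; each point is 1 library. DptA and edin are high in M1, M3 and virgin 3, MtnE in M1 and M2, and upd3, Ets21C and Hsp23 in P1.

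Ribosomal protein genes had positive changes for 40 of 49, with a median of 0.13 (0.26 with the midgut covariate), yet 0 passed. Without overlap 0 lay above and 4 below M heads, against 8.18% and 7.01% of all genes. RpL4 had 1104, 1365 and 926 CPM in P heads, against 1000, 882 and 663 CPM in M heads, and P2 was the highest library for it. Muscle genes had positive changes for 18 of 26, with 0 that passed. Of these 26, 4 lay above M heads without overlap, against 8.18% of all genes tested. The summed level of the list did not overlap on TMM-scaled library sizes (exact two-sided permutation test, p = 0.1). On total counts it did, with 9094 CPM in P2 against 9461 CPM in M3 (exact p = 0.2). The muscle actin gene Act79B had 125, 114 and 132 CPM in P heads against 109, 95.5 and 102 CPM in M heads. The summed muscle markers too were lower in M heads without overlap, but of the 8 markers only Act57B was separated by itself. Blood cell markers gave 0 of 16 that passed. Of the 16, 3 lay above and 2 below M heads without overlap, against 8.18% and 7.01% of all genes. The crystal cell prophenoloxidase gene PPO2 was at 30.6, 32.2 and 27.6 CPM in P heads against 27.5, 22.0 and 25.0 CPM in M heads. Detoxification enzymes gave 0 of 39 and a median of -0.05. There Cyp4g15 had 67.3, 64.6 and 57.7 CPM in P heads against 55.7, 47.3 and 53.1 CPM in M heads, and Cyp6a17 had 45, 39.2 and 50.9 CPM in P heads against 50.9, 70.2 and 57.9 CPM in M heads. Ovary genes gave 0 of 20 that passed, with 4 members above and 2 below M heads without overlap, against 8.18% and 7.01% of all genes. The eggshell gene Cp18 had 2.14, 2.79 and 1.96 CPM in P heads against 1.49, 1.26 and 1.85 CPM in M heads. The germline genes krimp and otu were those below, krimp with 0.727, 0.923 and 0.705 CPM in P heads against 1.08, 1.20 and 1.02 CPM in M heads. Other midgut markers, among them region and endocrine genes and alphaTry, which is also on the trypsin list, gave 0 of 19 that passed and a median change of -0.08. Of these 5 were high in virgin 1, and the list summed to 734, 742 and 878 CPM in P heads, against 1671, 3041 and 827 CPM in M heads. Cuticle and hydrocarbon genes gave 0 of 15 and a median of 0.03, genes of the male reproductive tract and sperm 0 of 4 and a median of 0.16, and genes of the salivary gland, proventriculus and crop 0 of 8 and a median of -0.14.

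**Figure D5:**
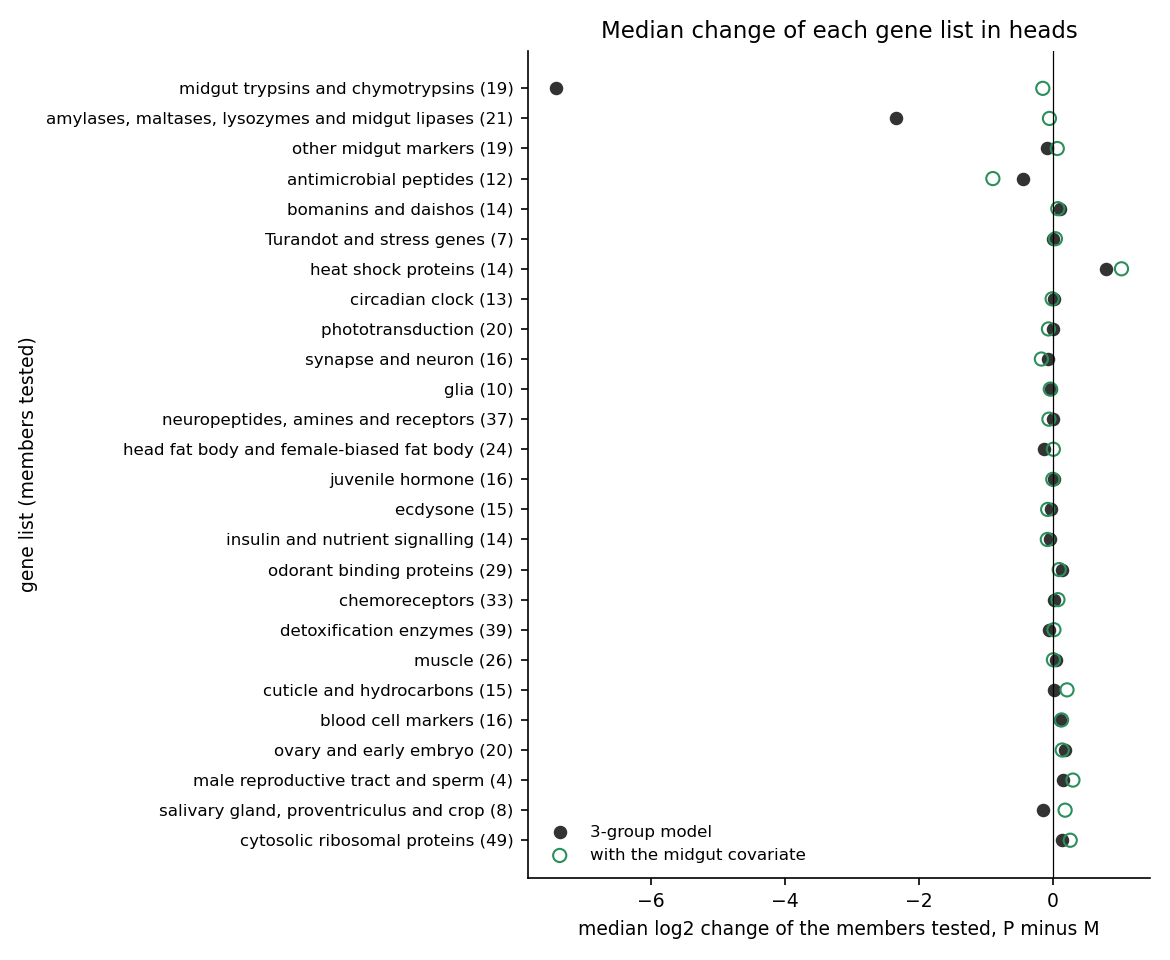
Median log2 change between P and M heads over the members tested of each gene list (number in brackets), without (filled) and with (open) the midgut covariate. The digestive lists stand at -7.42 and -2.34 without the covariate and at -0.15 and -0.05 with it, the first being fixed by the covariate's construction. The heat shock list is positive in both, and the antimicrobial peptides are at -0.45 and -0.89.

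Abdomens of females from the same matings gave a further set of libraries. There 0 of 10350 genes (0%) passed between P and M with edgeR, 185 (1.79%) had an unadjusted p below 0.05, and DESeq2 called 14. Without the M1 abdomen edgeR called 79 genes, all lower in P abdomens. Heads and abdomens share the male lines, so abdomens are no independent set for the genes named in heads. Of these 24 genes 17 had the same sign in abdomens, where 49.4% of all 9659 genes tested in both tissues had, and 2 had an unadjusted p below 0.05. These were Arts, with 136, 126 and 159 CPM in P abdomens against 188, 233 and 201 CPM in M abdomens, and disp, with 61.4, 44.0 and 67.2 CPM in P abdomens against 70.4, 102 and 79.5 CPM in M abdomens, on total counts. Arts had a log2 change of -0.42 ± 0.10 in heads and -0.57 ± 0.12 in abdomens, and disp -0.32 ± 0.08 and -0.56 ± 0.15. Idgf3 had -0.51 ± 0.08 in heads and -0.05 ± 0.15 in abdomens, and the difference between the tissues did not pass (adjusted p = 0.77 in edgeR).

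The difference between heads and abdomens in the P minus M change was tested over all 18 libraries. The fit took these libraries as independent, so head and abdomen libraries that share a male line were not matched. With edgeR 0 of 11631 genes passed (0%), 741 had an unadjusted p below 0.05, and DESeq2 called 23. Without the M1 abdomen 46 genes passed, all with a positive difference. The 5 genes of smallest p in the positive direction were Cpr49Ag, CG8343, CG8910, Octbeta1R and CG15923, and in the negative direction asRNA:CR45192, CG4650, mad2, CG7298 and CG9150. Of these 10, 9 were below 1 CPM in every mated library of 1 tissue. Cpr49Ag, a cuticle protein gene, had 11.4, 12.3 and 13 CPM in P heads and 12.4, 11.1 and 10.8 CPM in M heads, but 0.00, 0.02 and 0.00 CPM in P abdomens against 0.07, 0.48 and 0.61 CPM in M abdomens. The exception was CG8343, with 1131, 1121 and 1141 CPM in P heads against 951, 993 and 937 CPM in M heads, and 0.95, 0.88 and 0.88 CPM in P abdomens against 1.23, 1.45 and 1.34 CPM in M abdomens. In CG4650, P heads had 0.197, 0.135 and 0.185 CPM against 0.599, 0.608 and 0.486 CPM in M heads, without overlap. The spindle checkpoint gene mad2 had 0.413, 0.293 and 0.302 CPM in P heads against 0.528, 0.656 and 0.530 CPM in M heads.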

How the data were processed

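The authors deposited whole-number read counts per gene for 36 samples. Per the labels' protocols, a stranded kit for total RNA was used; per the submitters' processing notes, Trimmomatic 0.33, TopHat2 2.1.0 and HTSeq 0.6.1 were used on BDGP6. The sources used here give neither the annotation release nor the strand setting, so antisense and overlapping genes are uncertain. Names and coordinates came from Ensembl release 115 (17387 of 17552 identifiers).

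Runs of a library were summed: the chi-square per degree of freedom was 1.81 to 2.52 between runs of a head library, against 38.7 to 218 between libraries of a group. The 9 head libraries (40396031 to 64761633 counts) were fitted as 3 groups with edgeR 4.0.16 in R 4.3.3 (TMM, expression filter, robust quasi-likelihood test, Benjamini-Hochberg threshold 0.05). The common biological coefficient of variation was 0.272, with 6 residual degrees of freedom. DESeq2 1.42.0 and limma 3.58.1 were alternatives, with other normalisation, filters, covariates and left-out libraries. The code was tested on simulated counts.

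Members, 26 gene lists and tests were chosen with earlier results of these data known. Named genes were the 12 of smallest p per direction at a mean of at least 1 CPM without overlap, 6 with the midgut covariate, 5 between tissues, up to 4 per list, and genes marked as chosen after their values were seen. Nothing in the labels says that libraries of a group came from separate cultures beyond the male line. In mated heads the spread between male lines and that between pools cannot be told apart. The shared estimate of spread also takes in the virgin libraries, which have no male line, so p-values measure a mix of both kinds.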

Additional observations from a re-analysis of the deposited data

How the results depend on the processing

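The count of 0 genes between P and M heads was the same with DESeq2 size factors in edgeR, without a filter on low counts, with limma voom, at a mean of at least 1 CPM, in run 1 or run 2 alone, with the mated heads alone, without the genes high in virgin 1, and without M1 and M2. It was 1 with the midgut covariate, 1 without M1, M2 and virgin 1 (CG43680, log2 change -7.31, adjusted p = 0.0376), 17 with DESeq2, and 0 to 2 with 1 library left out. With M3 as the lone M library, that library is assumed to vary like the others. In abdomens the count of 0 was 14 with DESeq2 and 0 to 79 with 1 library left out. For the difference between tissues it was 23 with DESeq2, 8 with the replicate block and 0 to 46 with 1 library left out. The number of genes with P below M without overlap, 763, was 393 on total counts, a scale added after the data were seen.

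Numbers of the lines were not taken as pairs: deviations correlated at -0.07 for P1 with M1, 0.24 for P2 with M2 and 0.30 for P3 with M3, and P1 and P2 correlated best with another number. With the number as a replicate block 0 genes passed in heads and 0 in abdomens, against 8 for the difference between tissues, Cpr49Ag among them (5.52).

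Signs turned for few of the genes named. Without M1 and M2, or without these and virgin 1, Jon25Bii was at 2.60 or 2.57, Jon25Bi at 0.62 or 0.62, Jon99Ciii at 0.76 or 0.77, LysB at 2.26 or 2.26, alphaTry at 1.92 or 1.92, yip7 at 1.54 or 1.54, MtnD at 0.53 or 0.53, Oatp58Da at 5.91 or 5.88, vri at -0.016 or -0.015 and CG15923 at -0.32 or -0.31, and LysC was at 0.30 without M1 and M2. With the midgut covariate, alone or with the replicate block, alphaTry was at 0.21 or 0.17, Oatp58Da at 7.77 or 5.36, Mal-A1 at 0.58 or 0.79 and Mal-A2 at 1.38 or 1.18. CG15923 was at -0.076 with the covariate and -0.021 in run 1. With the covariate and the block TotA was at 0.00013, TotC at 0.073, Thor at -0.026, Yp1 at -0.041 and Yp2 at -0.11. CG9150 was at -0.00070 with limma voom and -0.17 in run 2, and Obp99b at -0.081 in run 2. With 1 library left out, the log2 change ranged from -0.075 to 0.24 for CG15923, -0.12 to 0.28 for CG9150, -0.16 to 0.020 for Octbeta1R, -0.17 to 0.11 for SPR, -0.084 to 0.027 for Rh3, -0.14 to 0.051 for Rh4, -0.13 to 0.13 for Yp1 and -0.16 to 0.22 for Yp2. The causes of these turns were not tested.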

Other observations

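A few genes chosen after their values were seen differed between P and M heads or between single libraries. None passed edgeR's test over all 9 libraries, while MtnE passed with DESeq2 (adjusted p = 0.0345), and MtnD and MtnE passed without M3. Ilp7, an insulin-like peptide gene, had 0.256, 0.360 and 0.436 CPM in P heads, against 0.120, 0.0800 and 0.0883 CPM in M heads and 0.216 to 0.267 CPM in virgin heads, so that M heads were the low ones (log2 change 1.86 ± 0.35). All these levels are low, and those of M heads rest on few counts. The JAK/STAT ligand gene upd2 had 1.18, 0.428 and 0.587 CPM in P heads, against 0.216, 0.112 and 0.154 CPM in M heads, without overlap. Its level was highest in P1, the library in which upd3 was high. In P1 the transcription factor gene Ets21C, known from stress responses, was at 12.2 CPM, against 2.21 and 2.18 CPM in P2 and P3 and 1.44 to 1.95 CPM in M heads. The chaperone gene Hsp26 had 177, 128 and 15.6 CPM in P heads and 95.4, 21.9 and 32.1 CPM in M heads.

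The immune gene edin had 0.0197, 0.0901 and 0.0336 CPM in P heads, against 3.40, 0.160 and 2.52 CPM in M heads and 3.55 CPM in virgin 3, and was thus high in the libraries with high DptA. The metallothionein gene MtnE had 0.688, 0.788 and 0.688 CPM in P heads, against 5.52, 3.97 and 0.839 CPM in M heads, and MtnD had 0.413, 0.338 and 0.302 CPM in P heads against 2.28, 3.71 and 0.243 CPM in M heads. Both were high in M1 and M2, the M libraries with midgut transcripts, but not in virgin 1, which had 1.05 CPM of MtnE and 0.611 CPM of MtnD.

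The ionotropic receptor gene Ir41a was near 0.5 CPM in some libraries and above 2 CPM in the others. It had 0.492, 0.450 and 0.571 CPM in P heads, against 3.69, 0.400 and 2.27 CPM in M heads and 0.589, 2.94 and 2.59 CPM in virgin heads. In abdomens, on total counts, it had 0.05, 0.04 and 0.06 CPM in P abdomens, against 0.23, 0.06 and 0.29 CPM in M abdomens, where M2 was again the low one.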
